A study of Pan troglodytes with 217 samples.

Results

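The sodium pump and the aquaporins are the transport proteins that a blastocyst needs to fill its cavity, and 6 of their genes were described here in chimpanzee blastoids. They are the pump beta subunits ATP1B1, ATP1B2 and ATP1B3 and the aquaporins AQP3, AQP9 and AQP11. Each symbol matched 1 Ensembl chimpanzee identifier among the 33729 in the table, namely ENSPTRG00000001653, ENSPTRG00000008701, ENSPTRG00000015476, ENSPTRG00000020860, ENSPTRG00000007114 and ENSPTRG00000004103 in the same order. The genes were picked for their roles, with earlier results of these data known, and their levels are given in the cells that had at least 8000 genes with a read, which left 24 cells of the series out.

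The study set out to establish naive pluripotent stem cells of the chimpanzee (Pan troglodytes), and the lineages they can form were among its questions. The paper reports that inhibiting PRC2, the complex of EZH2, enabled these cells to self-renew. Naive induced pluripotent stem cells were grown in PXGL-A6E, a medium with PD032590, XAV939, Gö6983 and EPZ-6438, which inhibit MEK, tankyrase, protein kinase C and the histone methyltransferase EZH2, and with the cytokines human LIF, Activin-A and IL6. They were clustered in PALY (PD032590, A83-01, LPA and Y-27632), moved to A83-01 with LPA and then to N2B27, and at day 4 the blastoids were dissociated and single cells were taken up by capillary for SMART-seq2. Most of the mural trophectoderm, the wall of the cavity away from the inner cells, had been cut away by hand and dissociated apart, and the labels do not say which part a cell came from. The numbers of cells per class can therefore not be read as those of a whole blastoid. All cells belong to 1 condition, and neither the line nor the blastoid of a cell is given in the labels. They were therefore treated as 1 sample with 0 tests, and the intervals cover counting error only. Those of CPM and of shares of reads count reads, which without molecular identifiers are not independent molecules. Those of shares of cells count cells, which come from 1 sample and are not replicates.

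The sodium pump, Na+/K+-ATPase, moves sodium out of the cell in exchange for potassium. It consists of a catalytic alpha subunit and a glycosylated beta subunit, which the alpha subunit needs in order to leave the endoplasmic reticulum, and FXYD proteins tune its activity. In the blastocyst the pump sits in the basolateral membrane of the trophectoderm, the sodium gradient it builds draws water inwards, and aquaporins let water cross the membranes. The counts measure RNA and not pump activity, protein position or cavity size.

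The cells were placed in 4 classes by their clusters, from which the 6 genes and the transport genes named below had been left out. There were 50 epiblast-like, 32 hypoblast-like, 60 early trophectoderm-like and 51 late trophectoderm-like cells. Levels are given in CPM, the counts of a gene per 1000000 reads, pooled over the cells of a class unless a cell is named. POU5F1, the pluripotency factor, had 1341 CPM in epiblast-like cells, 447 CPM in hypoblast-like cells and 87.1 and 54.3 CPM in early and late trophectoderm-like cells. At least 3 epiblast markers reached 10 CPM in 23 of 32 hypoblast-like cells. GATA4, an endoderm factor, had 92.2 CPM in hypoblast-like cells and stayed below 1 CPM in the other classes. It was read in 21 of 32 hypoblast-like cells, with a median of 23.8 CPM. PDGFRA, another hypoblast marker, reached 10 CPM in 32 of 32 hypoblast-like cells and had at most 5.72 CPM in the other classes. Further hypoblast markers were less particular to the class. GATA6 had 305.8 CPM in hypoblast-like and 156.6 CPM in early trophectoderm-like cells, and LAMB1 had 370.2 and 301.9 CPM. GATA3, a trophectoderm factor, was at 676 and 708 CPM in the trophectoderm-like classes against 70.4 and 58.5 CPM in epiblast-like and hypoblast-like cells. The trophectoderm-like classes differed in CDX2, at 24.8 CPM in early and 1.62 CPM in late cells, and in CCR7, at 5.71 and 315 CPM. The border between them was not sharp. With another random seed 12 cells passed from late to early, and those 12 had 116.3 CPM of CCR7. The median total per class was between 3693058 and 4516217 reads, with single cells from 1679888 to 25630392 reads. Feeder fibroblasts were a possible admixture, and the summed level of their 5 markers had a median between 0 and 1.12 CPM in the 4 classes and a highest value of 147.2 CPM, in an epiblast-like cell. Of these markers THY1 reached 28.2 CPM in epiblast-like cells, where 18 of 50 cells had 10 CPM or more, and COL1A2, COL6A3, DCN and LUM stayed below 1 CPM in each class.

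ATP1B1 encodes a beta subunit that is common in transporting epithelia. Its order was hypoblast-like, epiblast-like, early trophectoderm-like and late trophectoderm-like. The pooled level was 124.95 CPM (95% exact Poisson interval 123.03 to 126.9) in hypoblast-like cells, 68.6 CPM (67.5 to 69.8) in epiblast-like cells, 42.9 CPM (42.1 to 43.7) in early and 12.9 CPM (12.4 to 13.3) in late trophectoderm-like cells. Hypoblast-like cells thus had 9.72 times the level of late trophectoderm-like cells. With a minimum of 7000 genes per cell the late level was 26.5 CPM and this ratio was 4.67.

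Single cells spread widely in ATP1B1. Hypoblast-like cells had a lowest, median and highest level of 19.2, 106.7 and 445 CPM. Epiblast-like cells had 6.83, 66.1 and 150.9 CPM. Early trophectoderm-like cells had 2.46, 34.4 and 250.5 CPM, and late ones had 0, 8.95 and 80.3 CPM. All classes overlapped in their full range, and the interquartile ranges also overlapped between each pair of neighbours in the order. The hypoblast-like cells were nonetheless set apart from the late trophectoderm-like cells, since 32 of 32 lay above the late median and 23 of 32 above the highest late cell. Reads of ATP1B1 were present in every cell of the first 3 classes and in 46 of 51 late trophectoderm-like cells (90.2%, 95% exact Clopper-Pearson interval 78.6 to 96.7).

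ATP1B1 lies over the same stretch as NME7 in the RefSeq annotation, a gene for a nucleoside diphosphate kinase family protein, and reads of overlapping genes can be split between them. NME7 had the opposite order, with 6.62, 9.30, 11.7 and 20.0 CPM in hypoblast-like, epiblast-like, early and late trophectoderm-like cells. Its part in the ATP1B1 counts was not tested. ATP1B3 and AQP9 each overlap 1 RefSeq gene with no proper name, which was not looked at, and ATP1B2, AQP3 and AQP11 overlap none.

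**Figure D1:**
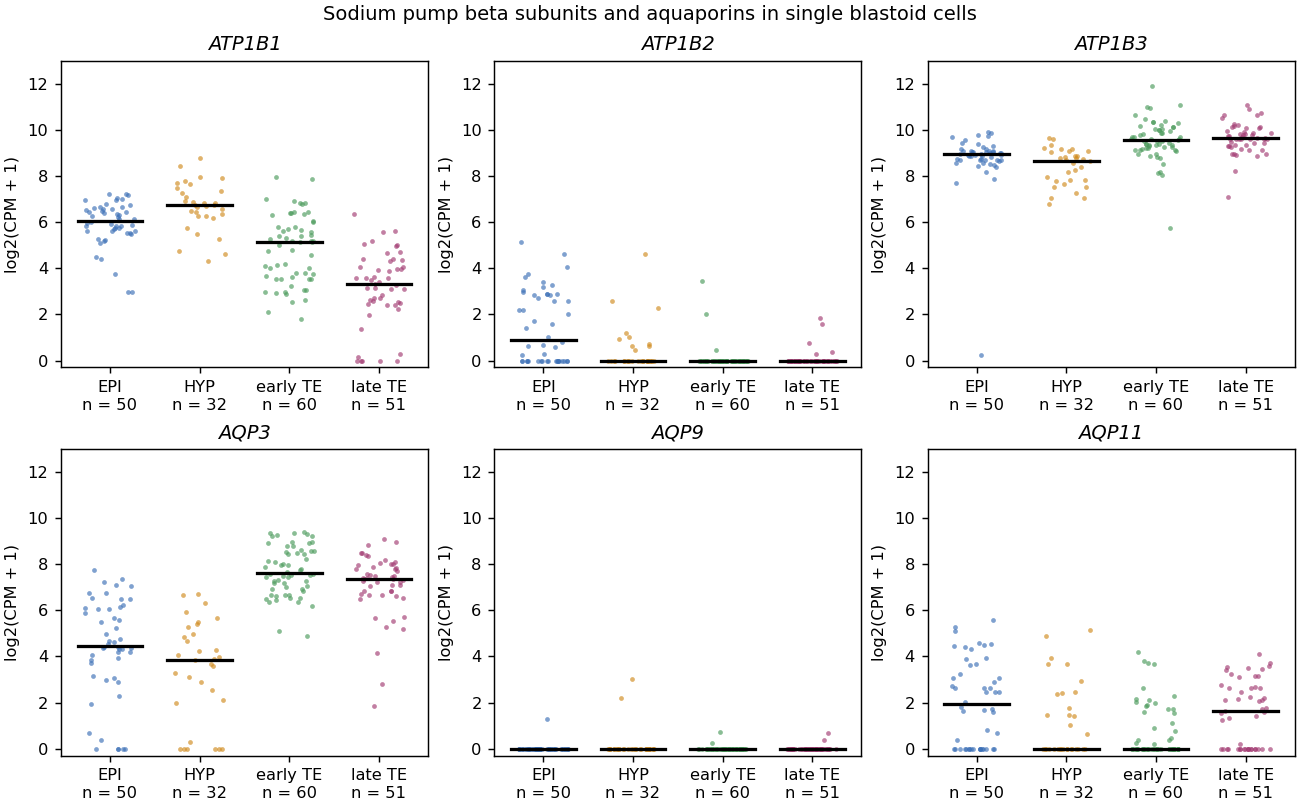
Each point is 1 cell and shows log2(CPM + 1) of 1 gene, in epiblast-like (EPI), hypoblast-like (HYP) and early and late trophectoderm-like (TE) cells, with black bars at the median. ATP1B1 has medians of 106.7 CPM in HYP and 8.95 CPM in late TE cells, AQP3 has the higher medians in both TE classes (197.4 and 165.2 CPM), and AQP9 has reads in only 7 cells.

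ATP1B3, a beta subunit found in many tissues, was higher in both trophectoderm-like classes than in the others. Its pooled level was 910.2 CPM (907 to 914) in early and 881 CPM (877 to 885) in late trophectoderm-like cells, 503 CPM (500.2 to 506) in epiblast-like cells and 392 CPM (388 to 395) in hypoblast-like cells. Every cell had a read. The trophectoderm-like cells ranged from 52.8 to 3865 CPM with medians of 752 CPM in early and 800 CPM in late cells, hypoblast-like cells from 108.6 to 812 CPM with a median of 406 CPM, and epiblast-like cells from 0.175 to 982 CPM with a median of 492 CPM. Early and late cells overlapped over most of their range, and their order by the median was the opposite of that by the pooled level. Of the trophectoderm-like cells, 89.2% lay above the epiblast-like median and 93.7% above the hypoblast-like median.

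One epiblast-like cell stood alone in ATP1B3. It had 1 read of the gene, whereas the next lowest epiblast-like cell had 211.1 CPM. The same cell had the lowest ATP1B1 of its class, 39 reads, and was chosen for mention after its values were seen.

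ATP1B2, which is best known as the beta subunit of glia and neurons, had its highest level in epiblast-like cells, by a margin that depended on the filter on cells. It had reads in 31 of 50 epiblast-like cells (62%, 47.2 to 75.3) and in 10 of 32 hypoblast-like (31.3%, 16.1 to 50), 3 of 60 early (5.00%, 1.04 to 13.9) and 5 of 51 late trophectoderm-like cells (9.80%, 3.26 to 21.4). The pooled level was 3.79 CPM (3.54 to 4.06) in epiblast-like cells, where single cells ranged from 0 to 34.5 CPM with a median of 0.877 CPM. It was 1.07 CPM in hypoblast-like cells, but 60.1% of these reads came from 1 cell and the level without it was 0.440 CPM. With a minimum of 7000 genes per cell it was 3.61 CPM, and the log2 ratio to epiblast-like cells was -0.061. Early and late trophectoderm-like cells had 0.263 and 0.136 CPM, with 62.9% and 50% of the reads in 1 cell each.

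The cells of the classes differ in depth, on which detection depends. When every cell was thinned to 2532312 reads, which left out 20 shallower cells, reads of ATP1B2 remained in 30 of 48 epiblast-like, 9 of 25 hypoblast-like, 3 of 54 early and 4 of 46 late trophectoderm-like cells.

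The make-up of the beta subunit reads differed between the classes accordingly, with intervals that count reads and leave out the spread between cells. ATP1B1 gave 24.1% of the reads of the 3 genes in hypoblast-like cells (23.8 to 24.5), 11.9% in epiblast-like cells (11.7 to 12.1), 4.50% in early (4.42 to 4.58) and 1.44% in late trophectoderm-like cells (1.39 to 1.49). With a minimum of 7000 genes per cell the share in late cells was 2.87%, still the lowest of the 4 classes. Reads also scale with transcript length, which was not available, so these shares can be compared between classes and not read as shares of molecules. Per cell, the medians were 20.4%, 11.5%, 3.38% and 1.03% in the same order. The highest hypoblast-like cell reached 70.7% and the highest late cell 13.6%. The share of 97.5% in 1 epiblast-like cell belonged to the cell with a single ATP1B3 read.

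**Figure D2:**
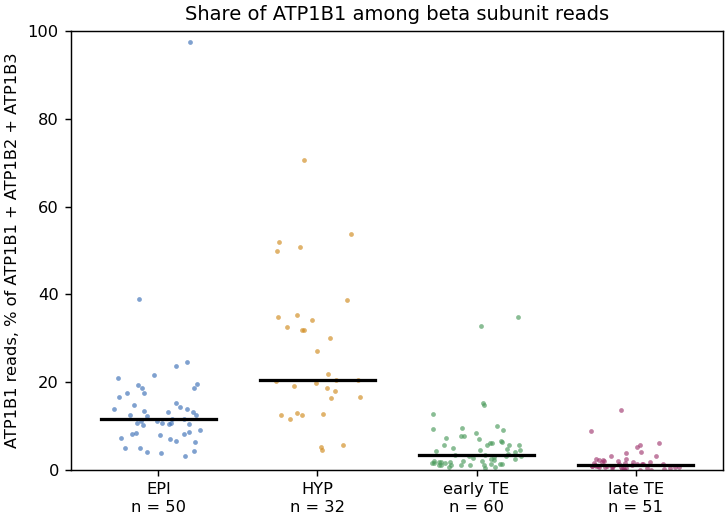
Each point is 1 cell, and the vertical axis gives ATP1B1 reads as a percentage of the reads of ATP1B1, ATP1B2 and ATP1B3 together, with black bars at the class medians of 11.5% (EPI), 20.4% (HYP), 3.38% (early TE) and 1.03% (late TE). The single EPI cell near the top is at 97.5%, and 1 HYP cell reaches 70.7%.

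AQP3, an aquaporin that carries water and glycerol in epithelia, had its highest levels in trophectoderm-like cells. It was pooled at 272 CPM (269.8 to 274) in early and 180.5 CPM (178.8 to 182.2) in late trophectoderm-like cells, against 43.1 CPM (42.2 to 43.99) in epiblast-like and 23.1 CPM (22.2 to 23.9) in hypoblast-like cells. Trophectoderm-like cells together thus had 5.28 times the epiblast-like and 9.86 times the hypoblast-like level. AQP3 was read in all 60 early and 51 late trophectoderm-like cells, in 45 of 50 epiblast-like cells (90%, 78.2 to 96.7) and in 26 of 32 hypoblast-like cells (81.3%, 63.6 to 92.8).

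Early trophectoderm-like cells had a lowest, median and highest AQP3 level of 29.1, 197.4 and 675 CPM, and late ones had 2.57, 165.2 and 548 CPM. Epiblast-like cells had 0, 21.3 and 215.8 CPM, and hypoblast-like cells had 0, 13.5 and 104.5 CPM. The trophectoderm-like cells were high and the other classes low with a partial overlap, in which 1 of 50 epiblast-like cells and 0 of 32 hypoblast-like cells lay above the trophectoderm-like median. Early and late cells overlapped broadly, with 18 of 51 late cells above the early median. The interquartile ranges also overlapped between epiblast-like and hypoblast-like cells.

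The lower level in epiblast-like cells was not zero, and genes of the trophectoderm marker list were read in these cells as well. The epiblast-like level of AQP3 was 18.95% of the trophectoderm-like level, and the same ratio over the 13 trophectoderm markers ran from 3.59% for VGLL1, a transcription cofactor, to 52.9% for the factor TFAP2C, with a median of 20.96%. TFAP2C is not particular to trophectoderm, since the paper also names it as a candidate factor of naive pluripotency. It had 10 CPM or more in 50 of 50 epiblast-like cells, and it is among the markers counted below. In hypoblast-like cells AQP3 was at 10.1%, and the markers ran from 2.93% for VGLL1 to 67.3% for CDX2, with a median of 14.5%. Of the 13 markers, 6 had a lower ratio than AQP3 in epiblast-like and 4 in hypoblast-like cells. At least 3 of the 13 trophectoderm markers reached 10 CPM in 31 of 32 hypoblast-like cells and in each of the 50 epiblast-like cells, and their summed level ranged from 278 to 5209 CPM in epiblast-like, from 331 to 4876 CPM in hypoblast-like and from 3361 to 16886 CPM in trophectoderm-like cells. Across the 50 epiblast-like cells AQP3 had a Pearson r of 0.037 with that sum, 0.25 with GATA3 and -0.11 with the keratin KRT18, on log2(CPM + 1), for cells of 1 sample. Across the 32 hypoblast-like cells these values were 0.18, 0.33 and 0.25. The part of trophectoderm RNA in the AQP3 reads of the other classes was not tested.

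AQP11, an aquaporin-like channel of the endoplasmic reticulum, was low and patchy. It had reads in 33 of 50 epiblast-like cells (66%, 51.2 to 78.8), 15 of 32 hypoblast-like (46.9%, 29.1 to 65.3), 24 of 60 early (40%, 27.6 to 53.5) and 32 of 51 late trophectoderm-like cells (62.7%, 48.1 to 75.9). The pooled levels in this order were 7.32, 3.24, 1.34 and 3.33 CPM. The highest cells had 46.9, 34.1, 17.2 and 16.3 CPM and the lowest cell of each class had 0, so that the ranges of all classes overlapped. Late exceeded early trophectoderm-like cells in both the level and the share of cells, whereas the pooled levels of ATP1B1 and AQP3 were higher in early cells.

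AQP9, a channel for water, glycerol and urea that is known from liver, was barely detected. It had 4 reads in 1 epiblast-like cell, 31 reads in 2 hypoblast-like cells, 4 reads in 2 early and 4 reads in 2 late trophectoderm-like cells. The pooled level was 0.241 CPM (0.164 to 0.342) in hypoblast-like cells, with 61.3% of the reads in 1 cell, and between 0.0151 and 0.0186 CPM in the other classes. No class difference was read from so few cells.

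The classes were next set side by side over all genes, as the log2 ratio of (CPM + 1), for genes with a read in at least 20 cells and at least 1 CPM in one of the classes compared. A difference of at least 2-fold was counted, with no test. Between trophectoderm-like and epiblast-like cells, 1 of the 5 members that could be compared was at least 2-fold higher and 3 were lower, where 9.33% of 12875 genes were higher and 18.5% were lower. AQP3 had a log2 ratio of 2.37, from 43.1 to 227.4 CPM. ATP1B3 had 0.83, just short of the limit. ATP1B1 had -1.25, ATP1B2 -2.0 and AQP11 -1.33. The median was -1.25 over the members and -0.13 over all genes. The ATP1B1 difference fell just short of 2-fold, at -0.99, when cells with 7000 genes were admitted, and those of ATP1B2 and AQP11 fell to -0.44 and -0.49 with 10 CPM added in place of 1.

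Against hypoblast-like cells, AQP3 and ATP1B3 were higher in trophectoderm-like cells with log2 ratios of 3.25 and 1.19, and ATP1B1 was lower with -2.10. Those are 2 of 5 members higher and 1 of 5 lower, against 10.5% and 11% of 12354 genes. ATP1B2 had -0.79 and AQP11 -0.36, and the medians were -0.36 over the members and 0.024 over all genes. The ATP1B2 value passed 2-fold with a minimum of 7000 genes (-1.88) and with 0.1 CPM added (-1.96), and 1 cell gave 60.1% of the hypoblast-like reads.

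Between hypoblast-like and epiblast-like cells, 1 of 5 members was at least 2-fold lower, where 13.3% of 12663 genes were lower and 4.97% higher. This was ATP1B2 with a log2 ratio of -1.21, which depended on the filter on cells, since it was -0.061 with a minimum of 7000 genes. ATP1B1 had 0.85, ATP1B3 -0.36, AQP3 -0.87 and AQP11 -0.97. The medians were -0.87 over the members and -0.17 over all genes.

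Within the trophectoderm-like cells, late against early, 1 of 4 members differed by at least 2-fold with 1 CPM added. This was ATP1B1 with a log2 ratio of -1.66, where 5.23% of 12016 genes were lower and 7.22% higher. AQP3 had -0.59, ATP1B3 -0.047 and AQP11 0.89, with a median of -0.32 over these members and 0.044 over all genes. AQP11 passed 2-fold with 0.1 CPM added (1.25) and without cells with markers of a second class (1.15). The ATP1B1 ratio was -0.52 with a minimum of 7000 genes, when 3 shallower cells with 20.3 to 552 CPM of ATP1B1 joined the late class and 12 cells left it for the early class. With another random seed and the same cells it was -1.43, and the 12 cells that then passed to early had 10.9 CPM of ATP1B1 and 283 CPM of AQP3.

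**Figure D3:**
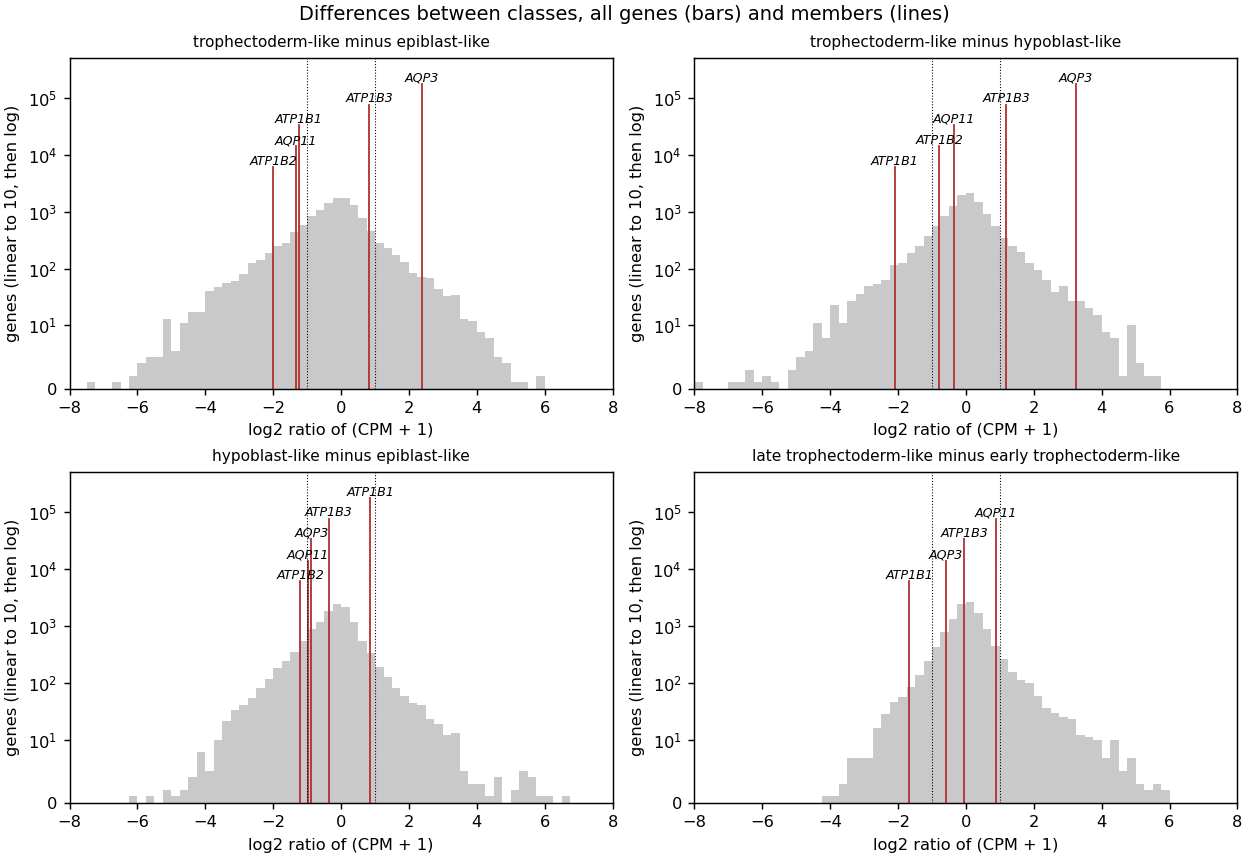
Grey bars count all genes compared by their log2 ratio of (CPM + 1) between the classes named above each panel, on a vertical axis that is linear up to 10 genes and logarithmic above, and red lines mark the members, with heights that only separate the labels. Dotted lines mark 2-fold. AQP3 is to the right at 2.37 and 3.25 when trophectoderm-like cells are set against epiblast-like and hypoblast-like cells, while ATP1B1 is to the left in both (-1.25 and -2.10) and in late against early cells (-1.66).

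FXYD proteins are partners of the pump, and 13 genes of pump subunits and regulators beside the members were examined. FXYD4, a regulator that raises the pump's affinity for sodium, had 156.1 CPM in hypoblast-like and 195.8 CPM in early trophectoderm-like cells, against 54.04 CPM in late trophectoderm-like and 28.4 CPM in epiblast-like cells. FXYD5, also known as dysadherin, had 17.1 CPM in hypoblast-like cells against 109.1 CPM in the epiblast-like class, with 69.3 and 85.4 CPM in early and late trophectoderm-like cells. FXYD6 had 29.98 CPM in epiblast-like cells and at most 2.18 CPM elsewhere. Of these 13 genes, 5 passed the filter on reads and level in trophectoderm-like against epiblast-like cells, all of them FXYD genes. FXYD4 was at least 2-fold higher with a log2 ratio of 2.12, FXYD6 (-3.81) and FXYD7 (-1.75) were lower, where 9.33% and 18.5% of all genes were, and FXYD3 (-0.056) and FXYD5 (-0.49) differed by less. The FXYD4 medians over cells were 89.5 CPM in trophectoderm-like and 10.9 CPM in epiblast-like cells, where 1 cell had 623 CPM. The FXYD7 ratio rests on low levels, 0.110 against 2.74 CPM. In hypoblast-like against epiblast-like cells FXYD4 was higher (2.42) and the other 4 were lower, with FXYD5 at -2.61 and FXYD3 at the limit with -1.003, where 4.97% of all genes were higher and 13.3% lower. In trophectoderm-like against hypoblast-like cells 1 of 4 was higher, FXYD5 with 2.11, and 0 were lower, against 10.5% and 11% of all genes. Late against early, 1 of 4 was lower, namely FXYD4 with a log2 ratio of -1.84, and 0 were higher, against 5.23% and 7.22% of all genes.

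**Figure D4:**
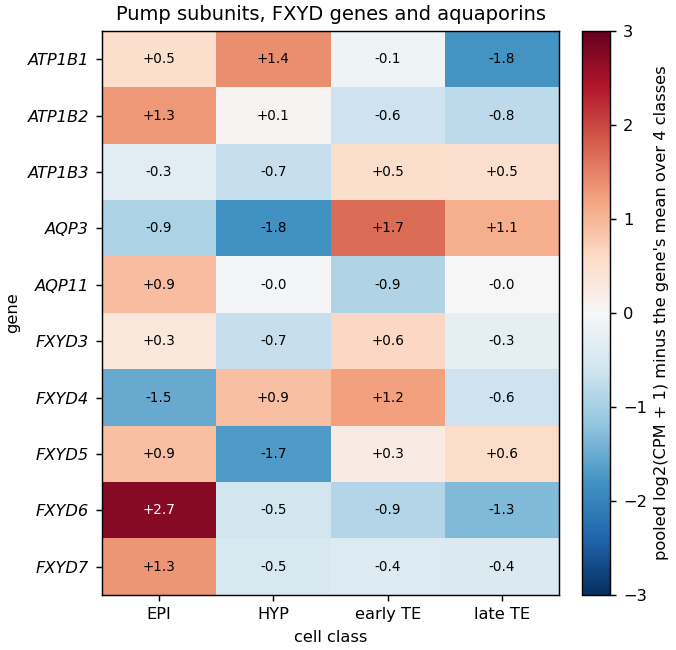
Rows are the members and those of the 13 pump genes that reach 1 CPM in at least 1 class, columns are the 4 classes, and color and number give the pooled log2(CPM + 1) minus the mean of that gene over the 4 classes, so that rows are not compared with each other. ATP1B3 and AQP3 are above their means in early TE cells, ATP1B1 is lowest in late TE cells, and ATP1B2, FXYD6 and FXYD7 are highest in EPI cells.

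Of the other 11 aquaporins listed, 0 passed the filter on reads and level in any contrast, so AQP3 and AQP11 were the genes of that family that could be compared. AQP7 and AQP12B have near-identical copies among which reads can be split, and their low counts are uncertain.

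Sodium enters the trophectoderm through exchangers and channels, and of 12 listed genes of such proteins and their scaffolds that were found in the table, 7 could be compared. In trophectoderm-like against epiblast-like cells 1 of the 7 was at least 2-fold higher and 2 were lower, where 9.33% and 18.5% of all genes were. NHERF1, a scaffold for exchangers at the apical membrane, was higher with 220.4 against 76.95 CPM. SCNN1A, the alpha subunit of the epithelial sodium channel, was lower with 3.81 against 20.4 CPM, and SLC4A7, a sodium bicarbonate transporter, with 16.1 against 44.3 CPM. SCNN1A had 30.6 CPM in hypoblast-like cells, so it shared with ATP1B1 the highest level in hypoblast-like and the lowest in late trophectoderm-like cells. In the other contrasts the calls among 7 genes were SCNN1A lower in trophectoderm-like than in hypoblast-like cells (-2.71, where 11% of all genes were lower) and in late than in early cells (-1.23, where 5.23% were), and SLC4A7 lower in hypoblast-like than in epiblast-like cells (-1.50, where 13.3% were).

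Among 14 genes of chloride transport and pump regulation, 11 could be compared between trophectoderm-like and epiblast-like cells, where 0 were at least 2-fold higher and 1 was lower, against 9.33% and 18.5% of all genes. This was STK39, a kinase that acts on chloride cotransporters, with 1.11 against 9.11 CPM. It was highest in hypoblast-like cells with 22.4 CPM. Against hypoblast-like cells 1 of 10 genes was higher in trophectoderm-like cells, SGK1 with a log2 ratio of 1.18, and 1 was lower, STK39 with -3.47, where 10.5% and 11% of all genes were. In hypoblast-like against epiblast-like cells 1 of 11 was higher, STK39 with 1.21, and 2 were lower, where 4.97% and 13.3% of all genes were. These were SGK1 with -1.18 by the pooled level and the chloride channel gene CLCN2 with -1.08, from low levels of 0.109 against 1.35 CPM. In late against early cells SGK1 was higher with 1.26 and 0 of 10 were lower, against 7.22% and 5.23% of all genes. SGK1, a kinase that raises the activity of the pump and of sodium channels, was pooled at 426 CPM in late and 177.2 CPM in early trophectoderm-like cells, but the medians over cells were 24.4 and 92.7 CPM. Its order by the pooled level and by the typical cell therefore differed, since some late cells had up to 5183 CPM. The same held against hypoblast-like cells, with medians of 59.2 CPM in trophectoderm-like and 66.2 CPM in hypoblast-like cells.

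Whether the subunits and the water channel occurred in the same cells was counted at 10 CPM or more. ATP1B3 and AQP3 were together in 60 of 60 early (100%, 94.04 to 100) and 49 of 51 late trophectoderm-like cells (96.1%, 86.5 to 99.5), in 37 of 50 epiblast-like cells (74%, 59.7 to 85.4) and in 19 of 32 hypoblast-like cells (59.4%, 40.6 to 76.3). ATP1B1 and AQP3 were together in 49 of 60 early (81.7%, 69.6 to 90.5), 22 of 51 late (43.1%, 29.3 to 57.8), 36 of 50 epiblast-like (72%, 57.5 to 83.8) and 19 of 32 hypoblast-like cells (59.4%, 40.6 to 76.3). Cells with AQP3 at 10 CPM or more and ATP1B1 below it made up 27 of 51 late (52.9%, 38.5 to 67.1) and 11 of 60 early trophectoderm-like cells (18.3%, 9.52 to 30.4). There was 1 of 50 such cells in the epiblast-like class and 0 of 32 in the hypoblast-like class. This limit lies near the late ATP1B1 median of 8.95 CPM, and with 1 CPM as the limit for both genes the shares were 13.7% of late and 0% of early cells.

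**Figure D5:**
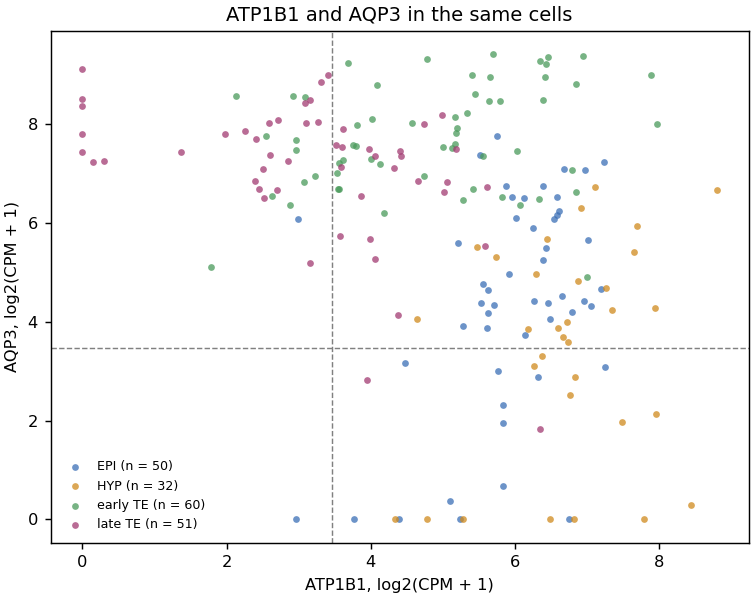
Each point is 1 cell, placed by log2(CPM + 1) of ATP1B1 and of AQP3 and colored by class, with dashed lines at 10 CPM. The upper left field, with AQP3 at 10 CPM or more and ATP1B1 below 10 CPM, holds 27 of 51 late TE and 11 of 60 early TE cells against 1 of 50 EPI and 0 of 32 HYP cells.

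The genes whose levels went most closely with each member were sought among 10529 genes over all cells kept, by Pearson's r of log2(CPM + 1). These cells share the classes, so the values are descriptions with no test. ATP1B1 went with RNASET2 (r = 0.67), ITGB3 (0.67), PDPN (0.66), NMU (0.66) and RNF125 (0.64). AQP3 went with PTGES (0.76), PPT1 (0.71), REEP1 (0.71), CCKBR (0.70) and PRSS8 (0.70). ATP1B3 went with TMED10 (0.83), RPN2 (0.79), TMBIM6 (0.77), BSG (0.77) and ATP6V0B (0.75). ATP1B2 went with CDH11 (0.65), ZNF827 (0.63), HS3ST5 (0.58), TMEM271 (0.57) and CDHR1 (0.56), and for AQP11 the highest value was 0.38, with MYOM3.

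After the class means had been taken off, ATP1B3 kept its values, with TMED10 at 0.80 and RPN2 at 0.79. AQP3 fell to 0.47 for PTGES, ATP1B2 to 0.48 for CDH11 and ATP1B1 to 0.40 for NMU. The highest value of ATP1B1 was then 0.445, with DNAJC3, and RNASET2, ITGB3, PDPN and RNF125 were no longer among its 5 closest genes. ATP1B3 and AQP3 had an r of 0.32 on this scale, and ATP1B1 and ATP1B3 0.24. ATP1B1 and AQP3 had -0.35 over all cells and 0.083 within classes. Total reads per cell had an r between -0.28 and 0.15 with the members within a class.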

How the data were processed

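Single cells of day 4 chimpanzee blastoids were profiled with SMART-seq2, and the authors deposited a table of read counts per Ensembl gene for 217 cells. The paper's methods name FastP for trimming and STAR for alignment and counting, on the chimpanzee genome Pan_tro_3.0. The submitters' processing notes instead name Trim Galore 0.6.6, STAR 2.7.7a and GRCh38. The identifiers of this table are chimpanzee Ensembl genes, which go with the genome named in the paper and not with GRCh38. Which trimmer and STAR version apply is not settled. The counts are of reads and were not normalized. Whether the counting used strand is not given in the sources used here.

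Cells with under 4000 reads or under 8000 genes with a read were left out, which left 193. The study used the same limits and kept fewer cells, and which further cells it removed is not known. Scanpy 1.11.5 (50 components, 30 neighbours, genes in at least 20 cells) and leidenalg 0.10.2 (resolution 1, seed 0) gave 4 clusters, named from marker lists by mean standardized level. The members and 4 lists of transport genes were left out of this step. Doublets were neither called nor removed. Symbols came from a table that covers 18783 identifiers. AQP12A, SLC5A3 and SLC9A3R1 had no match there, the last being an older name of NHERF1. Gene neighbours came from RefSeq for NHGRI_mPanTro3-v2.0, another build, so no coordinates are given. No pair of cells had identical counts.

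The members and lists were chosen with earlier results of these data known. Named are the members, the listed genes, of which 4 are not reported here, class markers and the 5 genes with the largest r to each member. Pooled CPM have exact Poisson and shares exact Clopper-Pearson 95% intervals. Classes were compared on log2(CPM + 1) with no test. The code was tested on simulated data. Python 3.11.15, numpy 2.4.6, pandas 2.3.3 and scipy 1.17.1 were used.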

Additional observations from a re-analysis of the deposited data

Results flagged for a closer look

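The 24 cells left out by the filter on genes per cell, which entered no comparison above, also had reads of the members. Their summed reads came to 142.9 CPM of ATP1B1 (95% exact Poisson interval 139.4 to 146.5), 8.93 CPM of ATP1B2 (8.06 to 9.86), 651 CPM of ATP1B3 (643 to 658), 105.7 CPM of AQP3 (102.7 to 108.8) and 0.137 CPM of AQP11 (0.0503 to 0.298), and AQP9 had 0 reads, which allows up to 0.0685 CPM when a count of 0 is taken to allow 3 reads. They were singled out because each of the first 5 values lies above the limit that a count of 0 allows. ATP1B1 was read in 18 of the 24 cells with a median of 22.9 CPM and a highest value of 552 CPM, and ATP1B2 in 7 of 24 with a highest value of 131.9 CPM. These cells had a median of 1660767 reads, and they were placed in no class.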

How the results depend on the processing

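Of 225 recomputed log2 ratios of the members, 6 fell below 2-fold, 6 passed it and 0 called values changed direction, and the others stayed on their side. With a minimum of 7000 genes ATP1B1 had -0.99 (trophectoderm-like minus epiblast-like) and -0.52 (late minus early), and ATP1B2 had -1.88 (trophectoderm-like minus hypoblast-like) and -0.061 (hypoblast-like minus epiblast-like). With 10 CPM added, ATP1B2 and AQP11 had -0.44 and -0.49 against epiblast-like cells, and ATP1B2 had -0.32 for hypoblast-like minus epiblast-like. With 0.1 CPM added, ATP1B2 had -1.96 (trophectoderm-like minus hypoblast-like), and AQP11 had -1.15 (hypoblast-like minus epiblast-like) and 1.25 (late minus early). Median-ratio size factors gave ATP1B1 1.03 for hypoblast-like minus epiblast-like cells, and moved the median of all genes from -0.13 to -0.0049 for trophectoderm-like minus epiblast-like and from -0.17 to -0.0018 for hypoblast-like minus epiblast-like. Without cells with markers of a second class AQP11 had 1.15 (late minus early), and this setting gave no other contrast, because 0 epiblast-like and 0 hypoblast-like cells remained. Beyond what each setting changes by its construction, the cause was not tested.

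With 10 CPM added, the genes at least 2-fold higher and lower were 550 (4.27%) and 905 (7.03%) for trophectoderm-like minus epiblast-like, 483 (3.91%) and 549 (4.44%) minus hypoblast-like, 267 (2.11%) and 417 (3.29%) for hypoblast-like minus epiblast-like, and 310 (2.58%) higher and 1.89% lower for late minus early. With at least 10 CPM required in a class there were 1399 lower (16.5%) for trophectoderm-like minus epiblast-like, 766 higher (9.46%) and 863 lower (10.7%) minus hypoblast-like, 850 lower (10.2%) for hypoblast-like minus epiblast-like, and 522 higher (6.65%) and 374 lower (4.76%) for late minus early. With 0.1 CPM added 982 (8.17%) were lower in late cells. With the settings used above these counts were 1201 and 2378, 1293 and 1356, 629 and 1690, and 868 and 628.

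Cells with ATP1B1 and AQP3 made up 86% of epiblast-like, 78.1% of hypoblast-like, 100% of early and 86.3% of late cells at 1 CPM, and 28%, 12.5%, 28.3% and 0% at 50 CPM. For ATP1B3 and AQP3 the shares were 86%, 78.1% and 100% of epiblast-like, hypoblast-like and late cells at 1 CPM, and 32%, 12.5% and 86.3% at 50 CPM. Cells with AQP3 at the limit or above and ATP1B1 below it made up 0% of epiblast-like, 0% of early and 13.7% of late cells at 1 CPM, and 68.3% of early and 86.3% of late cells at 50 CPM. Of 96 recomputed shares of cells with a read of a member, 16 left their interval when 10 CPM was required in place of 1 read and 1 when the cells were thinned, and the 48 with a minimum of 7000 or 9000 genes stayed within it. Of 180 recomputed levels, 68 left their exact Poisson interval, and 5 of the 180 moved by over 1.5 times. With a minimum of 7000 genes these were ATP1B1 in late cells at 26.5 CPM and ATP1B2 in hypoblast-like cells at 3.61 CPM. Without cells with markers of a second class they were ATP1B2 in early cells at 0 and AQP9 there at 0.00536 CPM. As a mean over cells it was AQP9 in epiblast-like cells at 0.0291 CPM.

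Class sizes stayed within 1.5 times under the 6 other clusterings, in which 0 to 2 cells changed their broad class. Leaving out the deepest cell of each class and the second random seed were added after the data were seen. No paired analysis was possible because all cells belong to 1 group.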
